A study of Homo sapiens with 8 samples.

Results

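The genes described here encode proteins of pyruvate entry, the tricarboxylic acid (TCA) cycle, its side reactions and the branched-chain ketoacid dehydrogenase. They were chosen by symbol from a fixed list of 31 genes. All 31 were present among the 35394 genes of the deposited count table, and 29 passed the filter on low counts, against 15006 genes in all. They comprise 10 genes of pyruvate entry, 14 of the TCA cycle, 4 of side reactions and 3 of the branched-chain ketoacid dehydrogenase.

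Pyruvate made by glycolysis enters the mitochondrion through a carrier built of MPC1 and MPC2. The pyruvate dehydrogenase complex then turns it into acetyl-CoA, citrate synthase joins this to oxaloacetate, and the cycle oxidises the product stepwise back to oxaloacetate while loading NADH for the respiratory chain. The complexes that act on pyruvate, alpha-ketoglutarate and branched-chain ketoacids share a plan of a decarboxylase, a lipoate-bearing acyltransferase core and a common dihydrolipoamide dehydrogenase, DLD. In tumour cells the cycle also supplies carbon for lipids, nucleotides and amino acids, and glutamine often refills it.

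The cells were HCT116, a human colorectal cancer line labelled as epithelial with a ras mutation. The PZH group received Pien Tze Huang (PZH), a formula of Chinese medicine, for 24 h, and the DMSO group received the solvent as control, with 4 libraries of poly(A) RNA in each. The labels state no dose of the medicine, and nothing says that replicates were separate cultures, so p-values measure the spread between these libraries, which may be technical. By its title the study concerns reactive oxygen species and tumour growth under the medicine, and the comparison asks which genes differ between treated and control cells.

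Library totals were 18144117 to 18868057 counts in PZH and 19288836 to 19917571 in DMSO. The 10 most abundant genes took 10.5% to 11.4% of counts in PZH and 6.22% to 6.43% in DMSO. The part of this difference in the results below was not tested. Levels are counts scaled to a common library size (CPM) with TMM factors, and a floor of 3 counts, for counting error only, corresponds to 0.137 to 0.182 CPM. All 7 epithelial markers were detected, with summed levels of 2720 to 3045 CPM without scaling factors in PZH and 3990 to 4071 in DMSO. They did not move as one: KRT8 and ELF3 fell 1.91-fold and 2.32-fold, CDH1, CLDN7 and EPCAM rose 3.12-fold, 3.97-fold and 1.08-fold, and KRT18 and KRT19 did not pass the test. When scaling factors were left out, EPCAM, KRT18 and KRT19 were called lower. Fibroblast markers summed to 17.5 to 21.4 CPM in PZH and 11.7 to 14.3 in DMSO, nearly all of it the collagen gene COL1A1, while COL1A2 had no count. Endothelial, immune and erythroid markers each summed to at most 1.98 CPM in any PZH library and 3.21 in any DMSO library. The part of these markers in the results was not tested.

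Messenger RNAs of the TCA cycle were lower in PZH. Of the 14 cycle genes, 13 fell, none rose, and OGDH did not pass the test. Over the 29 tested members, 22 fell and 4 rose in edgeR's quasi-likelihood F test, with p-values adjusted by the Benjamini-Hochberg method over all genes tested and a threshold of 0.05. Over all genes, 40.9% were called lower and 39.3% higher (80.3% in all). The share of members called in either direction is near that background, while the split between lower and higher was 22 to 4 among members and 6143 to 5901 among all genes. The median log2 fold change, PZH over DMSO, was -0.52 over the tested members and -0.024 over all genes. PZH and DMSO libraries did not overlap for 25 of the 29 members, against 75% of all genes. At least 2-fold falls were called for 6 members, namely OGDHL, SUCLG2, DLAT, PDP1, IDH3B and MDH1, against 18.9% of all genes. A rise of that size was called for MPC1 alone among the members, against 15.8% of all genes.

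With most genes called, a direction depends on how libraries are scaled. When scaling factors were left out, the median of all genes was -0.28, and each member's log2 fold change moved by between -0.258 and -0.261. Under that choice 3 members were higher and 25 lower, the median of the members was -0.77, and 4473 genes in all were higher and 7670 lower (29.8% and 51.1%). In bulk RNA of this kind, fewer cells expressing a gene and less RNA per cell cannot be told apart.

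**Figure D1:**
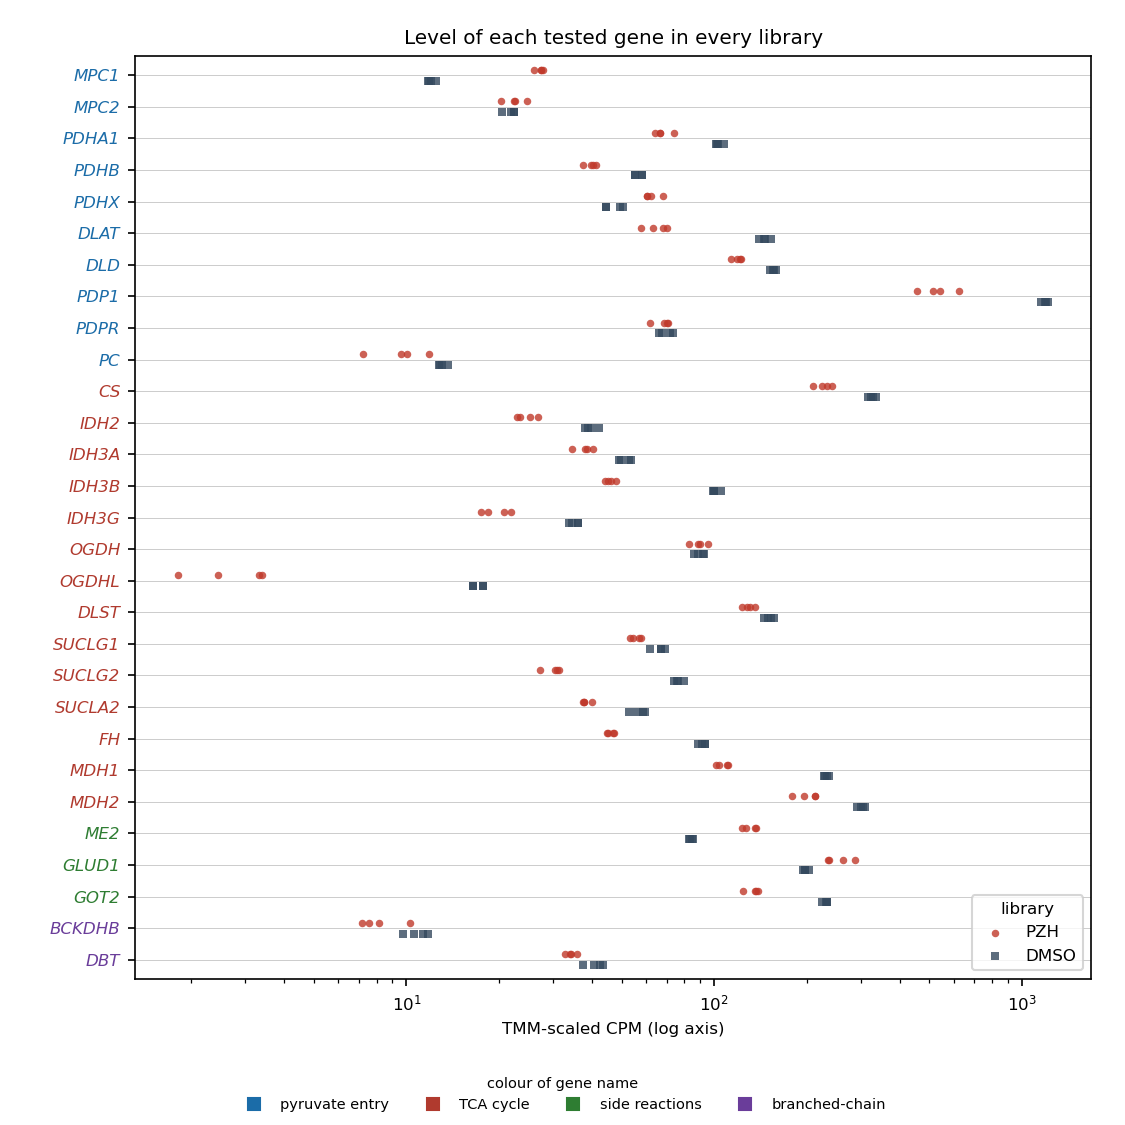
TMM-scaled CPM of the 29 tested genes (log axis) in each of the 4 PZH libraries (circles) and 4 DMSO libraries (squares), with gene names coloured by role. PZH points lie to the left of DMSO points for most genes, and to the right for MPC1, PDHX, ME2 and GLUD1.

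The mitochondrial pyruvate carrier changed in the balance of its subunits. MPC1 measured 27.3, 25.9, 27.7 and 27.3 CPM in the PZH libraries (in the order of their replicate numbers, as in all such lists), against 11.8, 12.02, 12.4 and 11.8 CPM in the DMSO libraries. Every PZH library lay above every DMSO library, and the gene rose 2.25-fold (log2 fold change 1.17 ± 0.076 SE, edgeR adjusted p = 1.86e-12). Its partner MPC2 stood at 22.4 ± 1.74 CPM in PZH and 21.8 ± 0.882 CPM in DMSO (mean ± SD, n = 4 each) and did not pass the test (edgeR adjusted p = 0.620). Leaving out the factors made it a fall of size -0.22 on the log2 scale (edgeR adjusted p = 0.0116). A ratio of counts within a library does not depend on library scaling. The 9 pairs tested in this way were chosen with earlier results of these data known. The log2 ratio of MPC1 to MPC2 averaged 0.27 ± 0.146 in PZH and -0.86 ± 0.0664 in DMSO, a difference of 1.13 ± 0.0804 SE that was present in every library (exact two-sided permutation p = 0.0286, the smallest that 70 assignments allow, and 0.0368 after adjustment over 9 ratios).

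Genes of the pyruvate dehydrogenase complex fell except PDHX. The decarboxylase subunits PDHA1 and PDHB fell 1.53-fold and 1.43-fold. PDHA1 stood at 66.5, 74.3, 66.4 and 64.3 CPM in PZH, against 102, 102, 108 and 103 CPM in DMSO. The groups were well apart for both subunits. Between these subunits the log2 ratio, PDHA1 to PDHB, averaged 0.77 ± 0.0962 in PZH and 0.87 ± 0.0686 in DMSO, a difference of -0.096 ± 0.0591 SE that did not pass the test (exact permutation p = 0.143, also after adjustment). The steepest fall in the complex was that of DLAT, its acetyltransferase core, with 70.1, 58.0, 68.2 and 63.2 CPM in PZH, against 145, 139, 146 and 152 CPM in DMSO (2.25-fold lower, log2 fold change -1.17 ± 0.055 SE, edgeR adjusted p = 5.12e-15). The highest PZH value of DLAT was below the lowest DMSO value by a wide margin. DLD, the dehydrogenase shared with the other ketoacid complexes, fell 1.31-fold to 119 ± 4.19 CPM in PZH, against 155 ± 2.62 CPM in DMSO.

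PDHX, which tethers DLD to the core, moved the other way. It stood at 60.5, 60.5, 62.4 and 68.3 CPM in PZH, against 50.5, 44.5, 49.3 and 44.6 CPM in DMSO. All PZH libraries were higher, and the rise was 1.33-fold (log2 fold change 0.41 ± 0.059 SE, edgeR adjusted p = 1.06e-06), or 0.15 on the log2 scale without scaling factors, where it was still called. In GENCODE v29, 8.94% of the exon bases of PDHX overlap APIP on the opposite strand. APIP had 1631 counts over the PZH libraries and 3001 over the DMSO libraries. Whether the counting used strand is unknown, so reads of such pairs may have been mixed.

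The phosphatase subunit PDP1, which switches the complex on by removing the inhibiting phosphate from PDHA1, fell as well. PDP1 stood at 515, 622, 456 and 541 CPM in PZH, against 1211, 1152, 1191 and 1183 CPM in DMSO. The PZH libraries spread more widely, with a coefficient of variation of 12.9% in PZH and 2.07% in DMSO, but stayed far below DMSO. The fall was 2.22-fold (log2 fold change -1.15 ± 0.068 SE, edgeR adjusted p = 3.51e-13). Per kilobase of GENCODE v29 exon length its level was 115.6 CPM in PZH and 256.8 CPM in DMSO, the highest of the 31 members in both groups. The counting behind so high a level could not be checked without reads. On the same scale the next was GLUD1 at 83.6 CPM in PZH, and MDH1 at 122.9 CPM in DMSO. The regulatory subunit PDPR averaged 68.0 ± 4.08 CPM in PZH and 69.7 ± 3.43 CPM in DMSO and was not called (edgeR adjusted p = 0.552). Without factors it was called lower, at -0.29 on the log2 scale (adjusted p = 9.09e-05). Pyruvate carboxylase PC, which makes oxaloacetate from pyruvate, was low and variable in PZH, at 10.1, 7.21, 11.8 and 9.63 CPM, against 13.1, 12.9, 13.7 and 12.7 CPM in DMSO. The groups did not overlap, and PC fell 1.35-fold (edgeR adjusted p = 0.00195).

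The first steps of the cycle were lower to differing degrees. Citrate synthase CS, which starts the cycle, stood at 209, 233, 224 and 241 CPM in PZH, against 315, 328, 334 and 324 CPM in DMSO, and fell 1.43-fold. The NADP-linked isocitrate dehydrogenase IDH2 fell 1.62-fold to 24.5 ± 1.78 CPM in PZH, against 39.7 ± 1.72 CPM in DMSO. The 3 genes of the NAD-linked isocitrate dehydrogenase all fell but not equally. Its catalytic subunit IDH3A fell 1.35-fold to 37.9 ± 2.47 CPM in PZH, against 51.3 ± 2.33 CPM in DMSO. The subunit IDH3B stood at 44.1, 48.0, 45.1 and 46.2 CPM in PZH, against 99.0, 99.97, 104.8 and 100.1 CPM in DMSO (2.20-fold lower, log2 fold change -1.14 ± 0.048 SE, edgeR adjusted p = 8.73e-16). Within each group the libraries differed little, and the gap between groups was much larger than either spread. The regulatory subunit IDH3G fell 1.79-fold to 19.6 ± 2.04 CPM in PZH, against 35.2 ± 1.13 CPM in DMSO.

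The log2 ratio of IDH3A to IDH3B averaged -0.28 ± 0.0914 in PZH and -0.98 ± 0.0889 in DMSO, so IDH3A stood 1.63-fold higher relative to IDH3B in PZH (difference 0.70 ± 0.0638 SE, exact permutation p = 0.0286, adjusted p = 0.0368). IDH3G gained on IDH3B by 0.29 ± 0.0840 SE with the same p. In GENCODE v29, 15.2% of the exon bases of IDH3G overlap SSR4 on the opposite strand, and SSR4 had 8781 counts in PZH and 4424 in DMSO, so the IDH3G values are uncertain. ACSBG1, on the opposite strand, overlaps 60.3% of the exon bases of IDH3A but held 19 counts in PZH and 44 in DMSO. The ratio of IDH2 to IDH3A differed by -0.26 ± 0.0917 SE and did not pass the test (exact permutation p = 0.0571, adjusted p = 0.0642), since PZH replicate 3, at -0.37, lay among the DMSO values of -0.44 to -0.32.

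The alpha-ketoglutarate dehydrogenase genes parted widely. OGDH, the main decarboxylase of the complex, stood at 89.9, 95.2, 82.7 and 88.2 CPM in PZH, against 86.2, 91.8, 92.9 and 88.9 CPM in DMSO. The groups overlapped, and the log2 fold change was -0.016 ± 0.050 SE (edgeR adjusted p = 0.780), or -0.27 and called lower without scaling factors (adjusted p = 3.73e-05). Its paralog OGDHL had the largest change of the 29 tested members. OGDHL stood at 2.43, 3.31, 3.38 and 1.82 CPM in PZH, against 16.4, 17.8, 17.8 and 16.5 CPM in DMSO. It fell 6.25-fold (log2 fold change -2.64 ± 0.140 SE, edgeR adjusted p = 4.56e-14), and 2.69% of all tested genes had a lower fold change. Relative to OGDH, the log2 ratio of OGDHL averaged -5.05 ± 0.428 in PZH and -2.39 ± 0.0251 in DMSO (difference -2.66 ± 0.214 SE, exact permutation p = 0.0286, adjusted p = 0.0368). In raw counts OGDHL had 30 to 56 reads per PZH library, against 345 to 382 per DMSO library. Its PZH values had the largest relative spread of the tested members, a coefficient of variation of 27.4%. DLST, the succinyltransferase core of the complex, fell 1.17-fold to 129 ± 5.33 CPM in PZH, against 151 ± 4.77 CPM in DMSO (edgeR adjusted p = 1.31e-04).

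Succinyl-CoA synthetase pairs a common alpha subunit, SUCLG1, with a beta subunit that makes either GTP (SUCLG2) or ATP (SUCLA2). SUCLG2 stood at 27.2, 30.4, 30.8 and 31.3 CPM in PZH, against 74.2, 75.8, 79.6 and 76.2 CPM in DMSO. It fell 2.56-fold (log2 fold change -1.36 ± 0.056 SE, edgeR adjusted p = 5.67e-16), the steepest fall of the cycle genes after OGDHL. SUCLA2 fell less, 1.48-fold, with 37.6, 37.6, 37.8 and 40.04 CPM in PZH, against 59.4, 52.8, 58.6 and 56.3 CPM in DMSO. The order of the raw counts turned over: SUCLG2 had more counts than SUCLA2 in every DMSO library and fewer in every PZH library. Their log2 ratio, SUCLA2 to SUCLG2, averaged 0.36 ± 0.0801 in PZH and -0.43 ± 0.0822 in DMSO (difference 0.79 ± 0.0574 SE, exact permutation p = 0.0286, adjusted p = 0.0368). The alpha subunit SUCLG1 fell 1.19-fold to 55.5 ± 2.14 CPM in PZH, against 66.2 ± 3.19 CPM in DMSO.

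**Figure D2:**
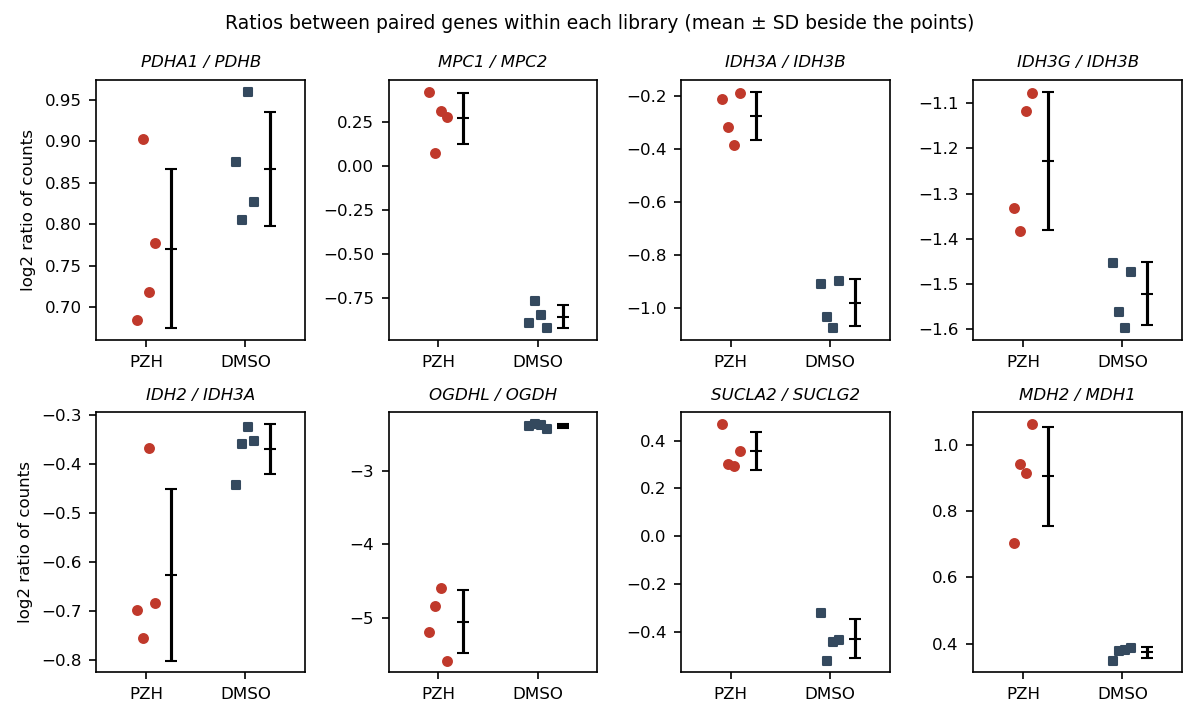
Log2 ratio of counts (0.5 added to each) between paired genes in each PZH (circles) and DMSO (squares) library, with mean ± SD beside the points and a separate vertical scale for each pair. The groups are apart for 6 of the pairs shown and overlap for PDHA1 / PDHB and IDH2 / IDH3A.

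Genes of the last steps of the cycle fell as well. Fumarase FH stood at 45.2, 46.9, 45.0 and 47.3 CPM in PZH, against 93.4, 91.4, 88.8 and 93.5 CPM in DMSO, a fall of 1.99-fold (log2 fold change -0.99 ± 0.048 SE, edgeR adjusted p = 8.22e-15). Its PZH libraries were the closest to each other of any tested member (coefficient of variation 2.52%), and the groups stood far apart. Cytosolic malate dehydrogenase MDH1, part of the shuttle that carries reducing power into the mitochondrion, stood at 110.2, 110.6, 103.9 and 101.5 CPM in PZH, against 228, 236, 229.6 and 232 CPM in DMSO. It fell 2.17-fold (log2 fold change -1.12 ± 0.045 SE, edgeR adjusted p = 3.06e-16). The mitochondrial enzyme MDH2, which closes the cycle, fell 1.502-fold to 199.8 ± 15.7 CPM in PZH, against 300.1 ± 7.57 CPM in DMSO. The log2 ratio of MDH2 to MDH1 was 0.90 ± 0.149 in PZH and 0.37 ± 0.0170 in DMSO (difference 0.53 ± 0.0752 SE, exact permutation p = 0.0286, adjusted p = 0.0368).

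Side reactions that feed or drain the cycle went both ways. Malic enzyme ME2, which makes pyruvate from malate inside the mitochondrion, stood at 127, 136, 123 and 136 CPM in PZH, against 84.4, 83.4, 85.4 and 82.7 CPM in DMSO. It rose 1.55-fold (log2 fold change 0.64 ± 0.046 SE, edgeR adjusted p = 1.79e-11), or 0.38 on the log2 scale without scaling factors. Glutamate dehydrogenase GLUD1, which turns glutamate into alpha-ketoglutarate, stood at 236, 285, 233 and 262 CPM in PZH, against 203, 195, 197 and 197 CPM in DMSO. Each PZH library was higher, by 1.283-fold on average (edgeR adjusted p = 3.72e-06), but without factors the call was lost (0.098 on the log2 scale, adjusted p = 0.0774). GLUD1 has close copies, of which GLUD2 held 68 counts in PZH and 64 in DMSO, and GLUD1P3 97 and 72. Mitochondrial aspartate transaminase GOT2 fell 1.72-fold to 134 ± 6.82 CPM in PZH, against 229.7 ± 4.08 CPM in DMSO (log2 fold change -0.78 ± 0.046 SE, edgeR adjusted p = 3.38e-13).

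NNT, the proton-driven transhydrogenase that makes mitochondrial NADPH, was barely detected, with 0, 5, 11 and 4 counts in PZH replicates 1 to 4, against 2, 2, 0 and 0 counts in DMSO replicates 1 to 4. It did not pass the filter on low counts. The summed counts of 20 and 4 give a ratio per unit depth of 6.31, with an exact 95% interval of 2.12 to 25.4. That interval covers counting error only and not the spread between libraries, which over all genes was larger than counting noise. The groups overlapped, and PZH replicate 1 had no count.

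The branched-chain ketoacid dehydrogenase was expressed at low level. Its decarboxylase beta subunit BCKDHB stood at 8.15, 7.56, 7.19 and 10.2 CPM in PZH, against 11.3, 11.8, 9.73 and 10.6 CPM in DMSO. It fell 1.31-fold (edgeR adjusted p = 0.00482), although PZH replicate 4 lay above DMSO replicate 3. The transacylase core DBT fell 1.20-fold to 34.2 ± 1.20 CPM in PZH, against 41.03 ± 2.59 CPM in DMSO (edgeR adjusted p = 4.89e-04). The alpha subunit BCKDHA had 9, 7, 7 and 6 counts in PZH, against 0, 1, 1 and 0 counts in DMSO, and did not pass the filter. Its ratio per unit depth was 18.3, with an exact 95% interval of 4.63 to 158, again for counting error only. In GENCODE v29, 74.5% of its exon bases are shared with AC011462.1 on the same strand. AC011462.1 is absent from the deposited counts, so whether the annotation used for counting held it is unknown. If so, a counter could withhold most reads of BCKDHA, and the level of BCKDHA is uncertain. The log2 ratio of BCKDHA to BCKDHB (difference 3.88 ± 0.506 SE, exact permutation p = 0.0286, adjusted p = 0.0368) rests on these few reads and on the 0.5 counts added.

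**Figure D3:**
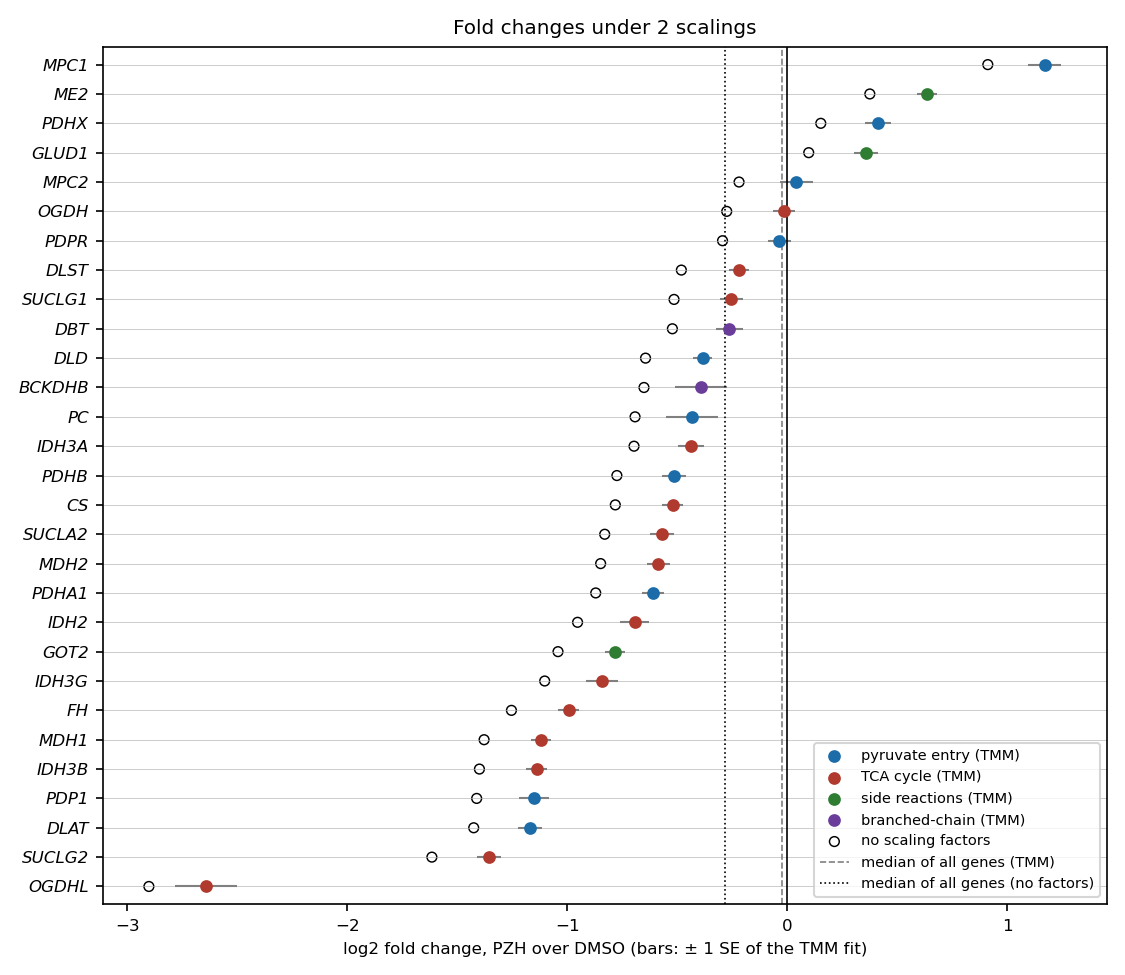
Log2 fold change of each tested member, PZH over DMSO, with TMM scaling (filled, bars ± 1 SE) and without scaling factors (open), beside the medians of all genes. Values run from -2.64 for OGDHL to 1.17 for MPC1, and GLUD1, ME2, PDHX and MPC1 are the members that stay above 0 without scaling factors.

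Replicates of PZH spread more than those of DMSO. The coefficient of variation was higher in PZH for 25 of the 29 tested members, with a median of 5.96% in PZH and 3.17% in DMSO. No PZH library set the pattern: replicate 4 was the highest of the group for 11 members, replicate 2 for 10, replicate 3 for 6 and replicate 1 for 2. Leaving out any library in turn gave 4 members higher and 22 lower each time.

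MPC1 and OGDHL, with the largest rise and the largest fall of the 29 tested members, are shown with the 250 bases before their RefSeq start (GRCh38.p14), chosen after their values were seen. Capitals mark letters that match a searched motif.
MPC1, chr6:166382941-166383190, minus strand: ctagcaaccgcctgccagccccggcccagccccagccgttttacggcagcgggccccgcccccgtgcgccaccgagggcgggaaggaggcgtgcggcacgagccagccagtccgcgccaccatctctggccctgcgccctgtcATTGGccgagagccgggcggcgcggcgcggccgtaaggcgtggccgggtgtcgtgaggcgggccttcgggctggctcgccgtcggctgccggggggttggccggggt
OGDHL, chr10:49762324-49762573, minus strand: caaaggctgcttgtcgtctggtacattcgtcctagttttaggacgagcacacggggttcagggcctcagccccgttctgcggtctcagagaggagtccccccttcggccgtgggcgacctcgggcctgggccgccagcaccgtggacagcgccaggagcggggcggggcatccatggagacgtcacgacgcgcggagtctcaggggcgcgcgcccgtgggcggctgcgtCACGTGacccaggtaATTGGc
The RefSeq table held 29 of the 31 members. On both strands of these windows, CCAAT, the letters bound by NF-Y, stood in 18 of 29 members (62.1%) and in 37% of the 27305 genes of the table, which include noncoding genes. Both windows shown hold it on the other strand, where it reads ATTGG. It was found for 12 of the 21 members that fell and have a window, and for 3 of the 4 that rose. The E-box CACGTG stood in 4 of 29 members (13.8%), OGDHL among them, and in 7.73% of all genes. CCGGAAGT, of ETS factors, stood in IDH3B, DLST and MDH2 (10.3%) and in 4.13% of all genes. The 10-letter palindrome of NRF1 stood in none of the 29 windows and in 1.278% of all genes. Likewise TCAAGGTCA of ERR receptors and TGATGNAA of ATF4 with CEBP partners stood in none, and in 0.388% and 3.89% of all genes. No motif match overlapped another in the windows shown. These matches describe letters in the windows only.

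Neighbouring genes of the pathway that are not members were read from 6 lists with 61 genes, of which 56 were tested, 21 rose and 30 fell. Over all genes tested, 39.3% were called higher and 40.9% lower. These shares are the background for the counts of every list below, most of which are short. Of the kinases and phosphatases that switch the ketoacid dehydrogenases, 4 of 7 rose and 3 fell. PDK2, a kinase that shuts pyruvate dehydrogenase off, fell 4.28-fold to 6.30 ± 1.25 CPM in PZH, against 27.1 ± 1.27 CPM in DMSO. The other pyruvate dehydrogenase kinases of the list went both ways. PDP2, the other phosphatase catalytic subunit, rose 1.52-fold to 67.4 ± 1.78 CPM in PZH, against 44.4 ± 1.35 CPM in DMSO, where PDP1 fell. PPM1K, the phosphatase that activates the branched-chain complex, rose 5.50-fold to 35.4 ± 3.26 CPM in PZH, against 6.43 ± 0.289 CPM in DMSO. Of the other cycle steps and their assembly factors, 2 of 9 rose and 5 fell. Leaving out the factors gave 1 higher and 6 lower in that list, against 29.8% and 51.1% of all genes. Succinate dehydrogenase genes SDHA, SDHC and SDHB fell 2.01-fold, 1.56-fold and 1.46-fold.

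**Figure D4:**
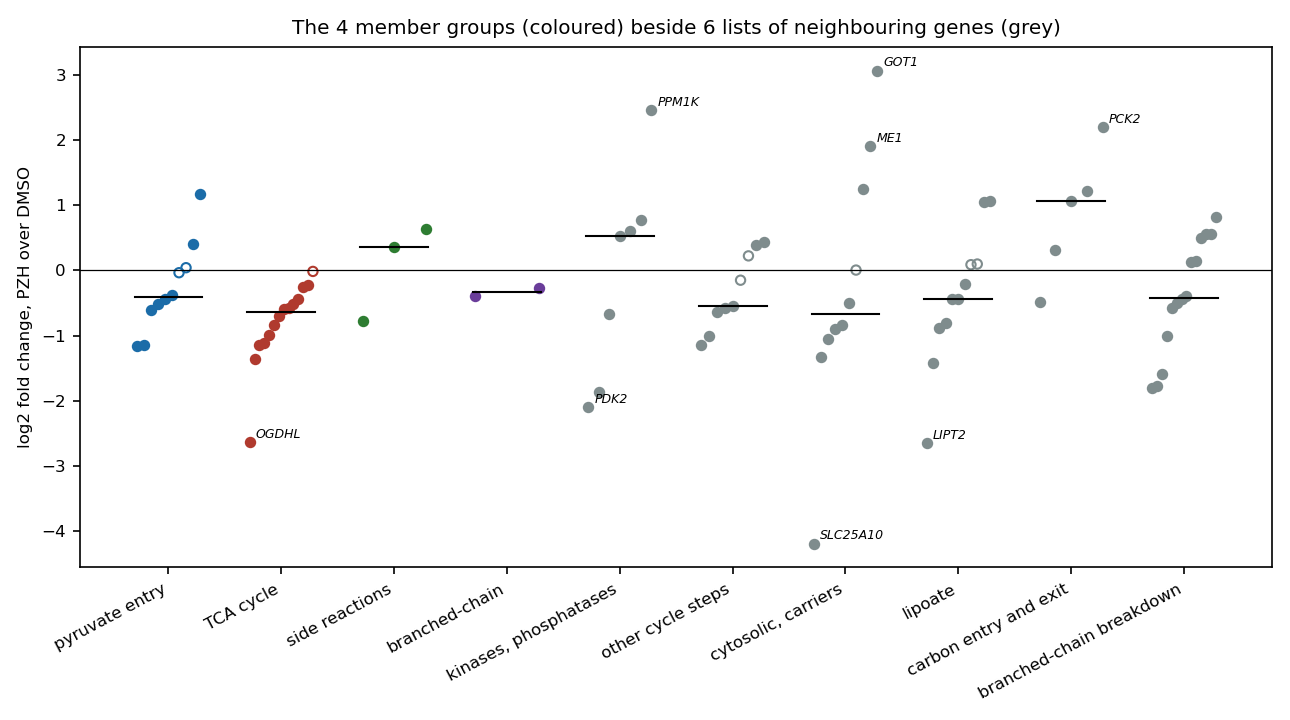
Log2 fold change, PZH over DMSO, of each tested gene in the 4 member groups (coloured) and 6 lists of neighbouring genes (grey). Open circles did not pass the test, horizontal lines are medians, and the widest spread is among cytosolic enzymes and carriers.

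Enzymes that attach lipoate or build its iron-sulfur donor rose in 2 of 11 cases and fell in 7, against 39.3% and 40.9% of all genes. MCAT, an acyltransferase of mitochondrial fatty acid synthesis, and GLRX5 fell 2.69-fold and 1.84-fold, and NFU1, which delivers iron-sulfur clusters, rose 2.08-fold. Of the cytosolic counterparts and mitochondrial carriers, 3 of 10 rose, namely GOT1, ME1 and IDH1, and 6 fell. Of the tested genes for carbon entry and exit, 4 of 5 rose and 1 fell. PCK2, which makes phosphoenolpyruvate from oxaloacetate in the mitochondrion, rose 4.61-fold, and alanine transaminase GPT2 rose 2.34-fold. Branched-chain breakdown beyond the dehydrogenase went both ways, with 6 of 14 genes higher and 8 lower. Without factors these counts of branched-chain genes were 4 higher and 9 lower, against 29.8% and 51.1% of all genes. HIBCH, MCCC2 and ACADSB fell 3.51-fold, 3.42-fold and 3.01-fold.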

How the data were processed

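Per the labels' protocols, poly(A) RNA was sequenced from NEBNext Ultra RNA libraries. Tools in the submitters' processing notes are HISAT2 2.1.0, DESeq 1.28.0, FastQC 0.11.5 and StringTie 1.3.3b, with no roles. No build, annotation or strand setting is stated in the labels or header. The authors deposited whole-number counts per gene symbol, not normalized, with 1 column per library. From these, genes were kept by filterByExpr (minimum count 10, total 15), scaled with TMM and tested PZH against DMSO with edgeR 4.0.16 (quasi-likelihood F test, group only, two-sided, Benjamini-Hochberg) in R 4.3.3. Each SE is the absolute log2 fold change over the root of F. The fit was checked on simulated counts in which few genes changed, unlike these data. That check therefore does not cover the scaling used here. The 9 ratios used log2(count + 0.5) and exact permutation tests. Replicates differed by more than counting noise in every pair (chi-square per degree of freedom 4.03 to 12.3 in PZH, 2.39 to 2.81 in DMSO). Exon lengths and overlaps came from GENCODE v29, promoters from RefSeq. Alternatives were RLE, upper quartile and no factors, no filter, a filter at 1 CPM in 4 libraries, DESeq2 1.42.0, limma-voom (limma 3.58.1), a replicate block, leaving out each library in turn and a threshold of 0.01. The text names all members and, per neighbour list, up to 3 called genes with the smallest p. Some genes that this rule or an overlap would name are not reported here. Members, lists and the pairs of the 9 ratios were chosen with earlier results of these data known.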

Additional observations from a re-analysis of the deposited data

Results flagged for a closer look

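Of 76 sets of 4 libraries checked (29 genes and 9 ratios in each group), 2 held a library far from the other 3, where chance gives about 1 in 20. SUCLA2 stood at 40.04 CPM in PZH replicate 4, with the other PZH libraries at 37.6 to 37.8 CPM. GOT2 stood at 223.7 CPM in DMSO replicate 1, with the other DMSO libraries at 231 to 232 CPM. Both gaps are small beside the differences between PZH and DMSO for these genes.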

How the results depend on the processing

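Of 29 tested members, 25 kept their direction and their side of the threshold in every alternative run. The others were 3 genes that had not passed the test, and GLUD1, which lost its call without scaling factors (log2 fold change 0.098). MPC2 turned to -0.032 with upper quartile factors and to -0.22 without factors. OGDH turned to 0.0090 with RLE factors and 0.0090 with DESeq2, and ran from -0.043 to 0.027 on leaving out single libraries. PDPR ran from -0.067 to 0.012 there. Without a filter on low counts, 6 members were higher and 22 lower. The cause of these shifts was not tested beyond the scaling itself. The labels do not say whether replicate numbers pair the libraries. Deviations of same-numbered libraries correlated only weakly, at 0.0063 to 0.033 over all tested genes. Even so, 3 of 4 PZH libraries correlated best with their own number. With the replicate number as a block, 4 members were higher and 22 lower, and 5889 genes in all were higher and 6125 lower. Leaving out a library gives the ratios no test, since 35 assignments cannot go below 0.0571, and paired sign flips cannot go below 0.125. Depth limits NNT, BCKDHA and OGDHL in PZH most.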

Other observations

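Cytosolic partners of 3 member enzymes rose while the mitochondrial enzymes fell or rose less. The pairs were chosen after their values were seen and are given without a test. GOT1, the cytosolic aspartate transaminase, rose 8.39-fold to 1059, 1161, 1238 and 1235 CPM in PZH, against 133, 145, 139 and 142 CPM in DMSO, and its mitochondrial partner GOT2 fell. The log2 ratio of GOT2 to GOT1 was -3.13 ± 0.0636 in PZH and 0.72 ± 0.0360 in DMSO (mean ± SD, n = 4 each). GOT2 therefore had more counts than GOT1 in each DMSO library and fewer in each PZH library. IDH1, the cytosolic NADP-linked isocitrate dehydrogenase, rose 2.38-fold to 370 ± 33.1 CPM in PZH, against 155 ± 7.33 CPM in DMSO, and the log2 ratio of IDH2 to IDH1 was -3.91 ± 0.230 in PZH and -1.97 ± 0.0177 in DMSO. Cytosolic malic enzyme ME1 rose 3.77-fold to 398 ± 17.8 CPM in PZH, against 106 ± 3.27 CPM in DMSO, and the log2 ratio of ME2 to ME1 was -1.61 ± 0.0631 in PZH and -0.33 ± 0.0336 in DMSO. MDH1 is the exception among cytosolic partners, as it fell more than MDH2.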
